A study of Homo sapiens with 36 samples.

Results

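The genes described here are the EGF receptor ligands AREG, EREG, HBEGF and TGFA, the related ligand NRG1, the receptor EGFR and its feedback inhibitor ERRFI1. They were taken by Ensembl identifier (ENSG00000109321 for AREG, ENSG00000124882 for EREG, ENSG00000113070 for HBEGF, ENSG00000163235 for TGFA, ENSG00000157168 for NRG1, ENSG00000146648 for EGFR and ENSG00000116285 for ERRFI1), which gives 7 of the 57232 gene rows of a deposited RNA count table. Of these, 6 passed the filter on low counts. TGFA, with 73 counts over all 36 libraries, did not. They are named by role, and the rule uses no measured value, but the set was chosen with earlier results of these data known.

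The cells were IMR90 ER:RAS, fibroblasts of human fetal lung whose added RAS protein is joined to part of the oestrogen receptor, at passage 14 in 10% serum. The compound 4OHT, at 100 nM, switches this RAS on, and the cells enter senescence. After 6 days with or without 4OHT, with fresh medium on day 3, cells were treated for 16 h, for 36 h, or for 36 h together with a caspase inhibitor (an agent that blocks the proteases of apoptosis). Proliferating cells had no 4OHT and received vehicle, while senescent cells had 4OHT and received vehicle, digoxin or ouabain, cardiac glycosides that block the sodium pump. This gives 12 groups of 3 libraries. All 12 groups share the fusion construct. No dose of either glycoside or of the inhibitor is stated in the sources used here, and proliferating cells with a glycoside were not analysed here. The question the design poses is how RAS-induced senescence and then the glycosides change the RNA of these cells.

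The EGF receptor is a tyrosine kinase at the cell surface that drives the RAS and MAP kinase pathway once a ligand binds. Its ligands are made as membrane proteins that sheddases of the ADAM family cut free, so that they act on the cell itself and on its neighbours. RAS and MAP kinase activity is in turn known to raise several of the ligand genes and ERRFI1, which binds the activated receptor and shuts it down. NRG1 binds ERBB3 and ERBB4 rather than EGFR, and reaches EGFR through receptor pairing.

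AREG and EREG are neighbours in the genome, and their promoters are shown because the 2 genes rose most in senescence yet parted after 36 h of glycoside. In the GENCODE annotation of GRCh38, EREG lies at chr4:74365143-74388751 and AREG at chr4:74445134-74455009, both on the plus strand with 56.4 kb between the end of EREG and the start of AREG. The 250 bases before each start, from RefSeq on GRCh38.p14, plus strand, are chr4:74444886-74445135 for AREG and chr4:74364895-74365144 for EREG, with the cAMP response element TGACGTCA and the TATA box TATAAA in capitals where present.
AREG: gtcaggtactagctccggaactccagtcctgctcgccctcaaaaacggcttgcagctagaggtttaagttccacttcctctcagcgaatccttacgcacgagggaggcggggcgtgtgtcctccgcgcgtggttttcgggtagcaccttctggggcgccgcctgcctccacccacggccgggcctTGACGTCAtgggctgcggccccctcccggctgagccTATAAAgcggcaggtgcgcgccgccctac
EREG: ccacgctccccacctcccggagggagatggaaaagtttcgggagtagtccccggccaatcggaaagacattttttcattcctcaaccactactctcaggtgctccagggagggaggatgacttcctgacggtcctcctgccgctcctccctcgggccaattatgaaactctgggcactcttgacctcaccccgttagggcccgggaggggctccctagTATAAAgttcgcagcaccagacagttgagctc
Both promoters held a TATA box, starting 29 bases before the start of AREG and 32 bases before that of EREG. The AREG promoter also held the palindromic cAMP response element, 65 bases before the start, and the EREG window held none. Searched on both strands over 35116 promoters of this length, the cAMP response element was found in 1.65% and the TATA box in 10.7%. The AP-1 letters TGANTCA, found in 6.57%, and the EGR1 letters GCGTGGGCG, found in 0.72%, were in neither window. A match describes letters only, and its part in the results was not tested.

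Library totals lay between 10854351 and 21446415 counts. HRAS RNA lay between 412 and 621 CPM (counts per 1000000 of the TMM-scaled library size) in proliferating libraries. It lay between 1020 and 1360 in senescent vehicle libraries and between 2450 and 5190 with a glycoside. Whether its reads come from the construct or from the cells' own gene was not tested. Since 4OHT acts on the RAS protein, these RNA levels do not show whether it was switched on. All 10 fibroblast markers were detected, with a summed level of 14700 to 17300 CPM in proliferating, 8740 to 9320 in senescent vehicle and 4960 to 5750 in glycoside-treated libraries at 36 h. At 16 h the sum was 9350 to 9490 CPM with digoxin and 8840 to 9510 CPM with ouabain. Marker sums of epithelial cells stayed between 4.46 and 13.5 CPM. The sum of 4 leukocyte markers lay between 0.0429 and 0.567 CPM in vehicle libraries and between 0.967 and 5.8 CPM with a glycoside. CD3E was at or near 0, so the higher sums with a glycoside lay in other markers of the list. Endothelial sums were at most 18 CPM with vehicle and 39.5 CPM with a glycoside. CDH5 was at or near 0, so here too the higher sums lay in other markers of the list. The part of these markers in the results was not tested. In bulk RNA, fewer cells of a type and less RNA per cell cannot be told apart. Replicate 2 of proliferating cells at 16 h and replicate 2 of ouabain at 16 h were left out together in an alternative chosen after the data were seen. Their median absolute log2 differences to the group were 0.383 and 0.29, beside 0.295 for proliferating replicate 1 at 16 h, which shares a group with the first. Mitochondrial ribosomal RNA took 2.52% of the counts in that proliferating replicate 2 and 0.775% to 1.01% in the other proliferating libraries, and its part in the results was not tested. Whether the 3 libraries of a group are separate cultures is not stated, so a p-value speaks only of library-to-library spread, some of which may be technical.

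In senescence, 5 of the 6 tested genes rose at 16 h, all 6 rose at 36 h and 5 rose at 36 h with the inhibitor, and 0 fell. The background is broad, since 51.6%, 52.5% and 52.3% of the 18696 genes tested were called there, 26.4%, 26.7% and 26.6% as higher and 25.2%, 25.8% and 25.7% as lower, at an adjusted p under 0.05 (edgeR's quasi-likelihood test, Benjamini-Hochberg adjustment). The median log2 change of the 6 genes was 1.71, 2.45 and 2.35, beside 0.01, -0.01 and 0 over all tested genes. AREG moved most of the 6 and EGFR least in each arm. With library totals in place of TMM, the median of all genes was -0.10 to -0.16 in these arms and -0.22 to -0.34 in the glycoside arms, so all changes here are relative to TMM scaling. By library totals 20.6%, 20.2% and 19.5% of all genes were called higher in senescence and 29.9%, 32.7% and 32.4% lower.

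**Figure D1:**
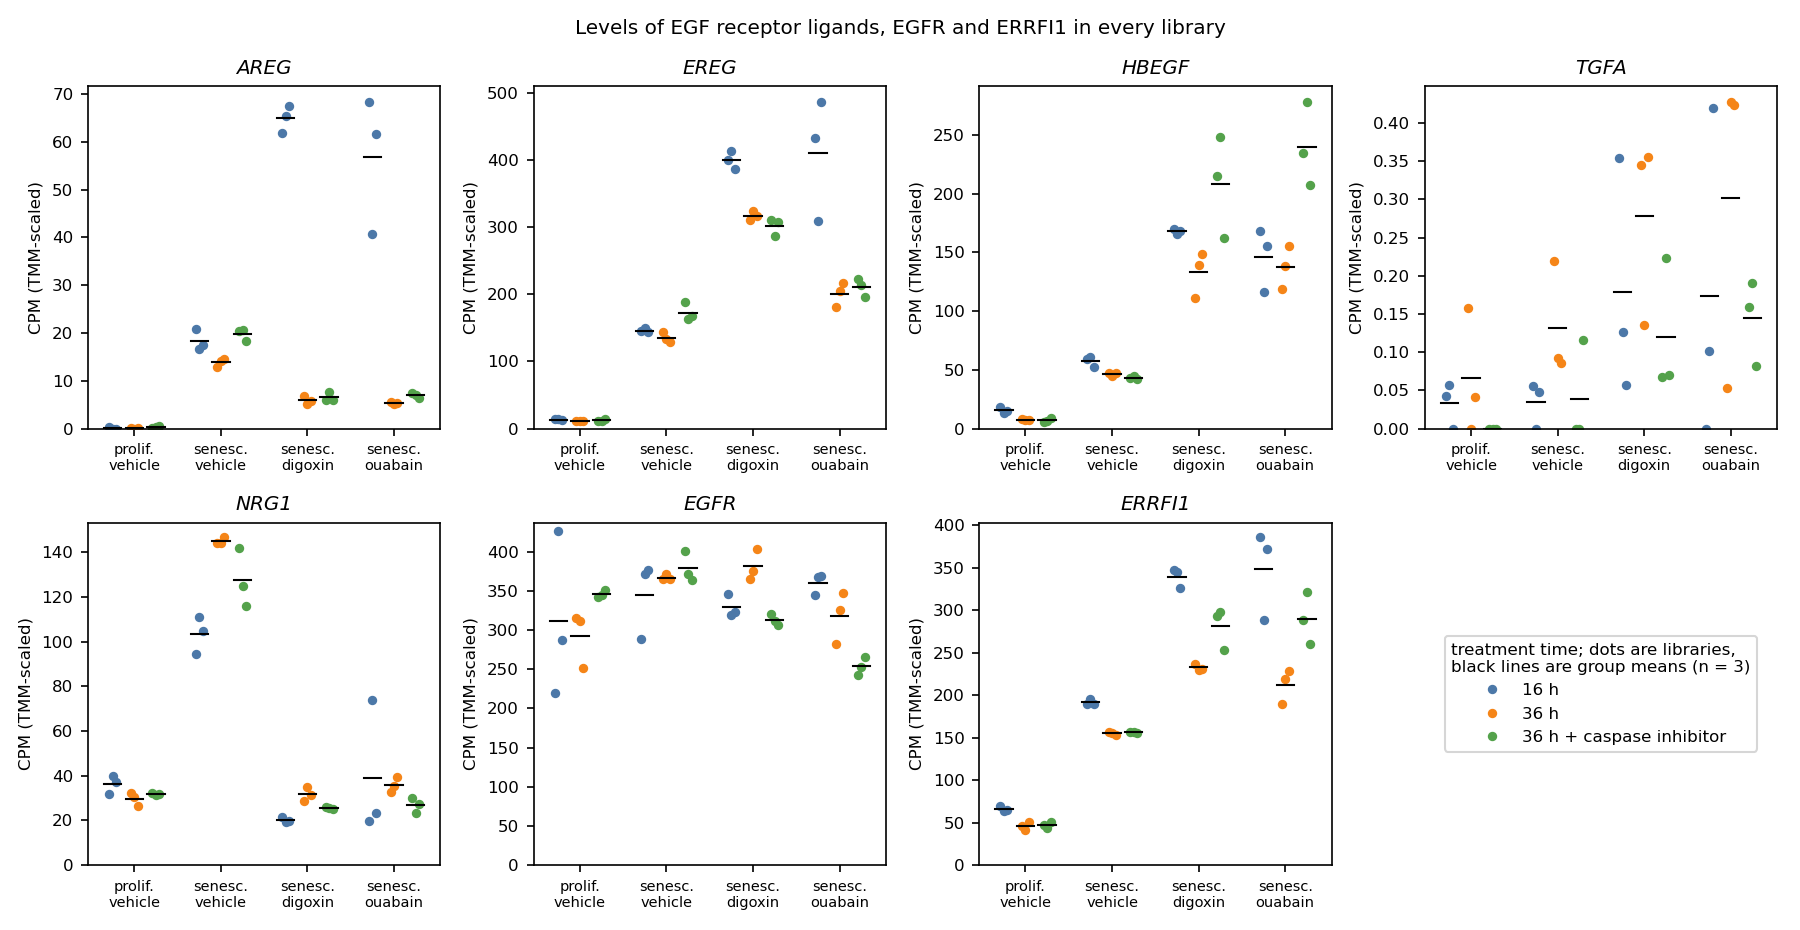
Level of each gene in CPM (linear axes from 0) in all 36 libraries, by treatment and time, with black lines at the means of 3 libraries. AREG is near 0 in proliferating cells, reaches 40.7 to 68.3 CPM at 16 h of glycoside and lies between 5.13 and 7.66 at 36 h, while NRG1 is high only in senescent vehicle groups, apart from 73.9 CPM in 1 ouabain library.

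AREG, amphiregulin, was close to silent in proliferating cells. The 3 proliferating libraries held 8, 0 and 0 counts at 16 h, 4, 0 and 2 at 36 h, and 1, 7 and 6 at 36 h with the inhibitor. Senescent vehicle libraries stood at 20.9, 16.6 and 17.4 CPM at 16 h, at 12.8, 14.2 and 14.6 at 36 h, and at 20.5, 20.6 and 18.3 with the inhibitor. Every senescent library was far above every proliferating library. The fitted log2 rise was 6.96 ± 0.35 (SE) at 16 h, 7.14 ± 0.37 at 36 h and 6.23 ± 0.32 with the inhibitor, with adjusted p-values of 1.91e-18, 3.38e-18 and 2.71e-18. These sizes rest on few proliferating counts. The SE was derived from the F statistic of the test, and near 0 counts it does not measure the precision of the size. Leaving out 1 library gave 6.45 to 11.31 at 16 h, 6.57 to 8.12 at 36 h and 5.74 to 6.66 with the inhibitor. Replicate 1 of proliferating cells at 16 h was the only library of its group with AREG counts, and without it 0 counts remained. Against a floor of 3 counts over replicates 2 and 3, AREG was then at least 206-fold higher in senescent cells, a bound for those replicates only. With all 3 libraries the means were 18.3 CPM in senescent and 0.114 CPM in proliferating cells. That proliferating mean was above the floor of 0.0891 CPM, so the ratio of the means was below 206. A row that may be a copy of AREG, described below, held 1 and 6 counts in replicates 2 and 3 at 16 h. Both this bound and the 36 h ratio that follows leave that row out. Without replicate 1 of proliferating cells at 36 h, 2 counts remained and the ratio was 325, with a 95% counting interval from 89.9 to 2680, and the fitted log2 rise was 8.12. Those 2 counts were 0.0427 CPM, while the mean of all 3 libraries was 0.0977 CPM, which gives a ratio below 325.

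With a glycoside, AREG first rose above its senescent level and then fell below it. At 16 h, AREG was 61.8, 65.4 and 67.6 CPM with digoxin and 68.3, 40.7 and 61.7 CPM with ouabain, all above the 20.9 CPM of the highest vehicle library. The log2 change was 1.83 ± 0.16 with digoxin (adjusted p = 9.78e-12) and 1.63 ± 0.16 with ouabain (adjusted p = 2.37e-10). Without the 2 libraries left out together, AREG gave 6.44 for senescence at 16 h, 1.84 for ouabain at 16 h and -3.24 for the difference of the ouabain effect between the times. At 36 h, AREG was 6.84, 5.13 and 5.69 CPM with digoxin and 5.45, 5.17 and 5.34 CPM with ouabain. All 6 libraries were below the lowest vehicle library, at 12.8 CPM. The log2 change against vehicle was -1.24 ± 0.20 with digoxin (adjusted p = 1.21e-06) and -1.38 ± 0.20 with ouabain (adjusted p = 1.76e-07).

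AREG was also lower than vehicle at 36 h when the caspase inhibitor was present. AREG then was 6.07, 7.66 and 6.06 CPM with digoxin and 7.45, 7.12 and 6.41 CPM with ouabain, against 18.3 CPM in the lowest vehicle library. The log2 change was -1.59 ± 0.19 with digoxin and -1.5 ± 0.19 with ouabain, with adjusted p-values of 7.15e-09 and 2.69e-08. From 16 h to 36 h, AREG fell 11-fold within the digoxin groups (log2 -3.46 ± 0.19, adjusted p = 5.71e-17) and 10.7-fold within the ouabain groups (log2 -3.41 ± 0.19, adjusted p = 1.41e-16). In senescent vehicle cells the same step was -0.40 ± 0.17, which did not pass the test. The effect of the drug itself differed between the times, by -3.07 ± 0.25 for digoxin and -3.02 ± 0.25 for ouabain on the log2 scale, with adjusted p-values of 8.43e-12 and 2.43e-11, in comparisons that called 42.7% and 35.1% of all genes. AREG stayed above its proliferating level at 36 h, where its lowest glycoside library was at 5.13 CPM and its highest proliferating library at 0.211.

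The AREG values carry an uncertainty of their own. A row without a gene name, ENSG00000205595, held 10234 counts in all beside 10289 for AREG, and the 2 rows followed each other with a Pearson correlation of 0.986 over the 36 libraries. In the 27 libraries with at least 100 counts in both rows together, their ratio lay between 0.758 and 1.26. RefSeq lists AREGB as another name of AREG, and whether this row is a copy of AREG in hg19 cannot be read from the files. If reads were split between 2 copies, the level of AREG is understated. Adding the rows together, an alternative chosen after the data were seen, changed 0 of 192 calls of these genes.

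**Figure D2:**
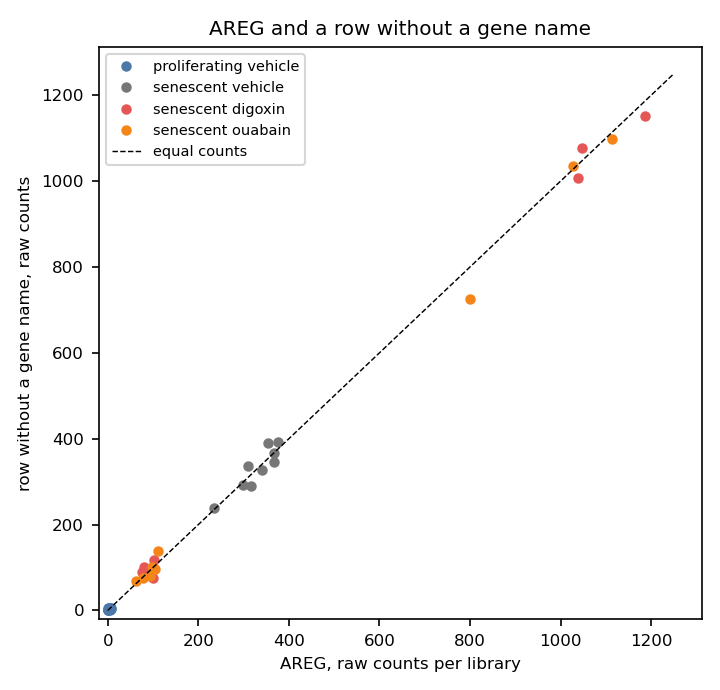
Raw counts of AREG (x axis) and of the row without a gene name (y axis) in each of 36 libraries, coloured by treatment, with a dashed line at equal counts. The points lie along the line, with totals of 10289 and 10234 counts.

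EREG, epiregulin, a ligand of EGFR and ERBB4, kept its rise with digoxin. It was the most abundant ligand of senescent vehicle cells per length, with AREG counted by its named row alone. Proliferating libraries held 13.6, 14.3 and 12.3 CPM at 16 h and 10.6, 10.5 and 10.7 at 36 h. Senescent vehicle libraries held 145, 149 and 143 CPM at 16 h and 143, 133 and 129 at 36 h. No library of the groups overlapped. EREG rose 10.9-fold at 16 h (log2 3.44 ± 0.12), 12.7-fold at 36 h (log2 3.67 ± 0.12) and 14.1-fold with the inhibitor (log2 3.82 ± 0.12). The adjusted p-values for EREG were 4.18e-23, 5.64e-24 and 2.96e-24.

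At 16 h of glycoside, EREG rose further, to 399, 413 and 386 CPM with digoxin and to 433, 309 and 486 with ouabain. At 36 h it was 310, 323 and 316 CPM with digoxin and 181, 204 and 216 with ouabain. With the inhibitor it was 311, 286 and 307 CPM with digoxin, 222, 214 and 196 with ouabain and 188, 163 and 167 with vehicle. Within each time and inhibitor arm every glycoside library was above every vehicle library, and at 36 h the ouabain libraries were below the digoxin libraries of the same arm. The log2 change of EREG with digoxin was 1.45, 1.23 and 0.80 at 16 h, 36 h and 36 h with the inhibitor, each ± 0.10, with adjusted p-values of 2.22e-14, 6.83e-13 and 1.36e-08. With ouabain it was 1.49, 0.57 and 0.29, each ± 0.10, with adjusted p-values of 1.81e-14, 8.02e-06 and 0.0142. The last call for EREG was lost without ouabain replicate 1 (0.25, adjusted p = 0.062) and without vehicle replicate 2 (0.25, adjusted p = 0.0666) or replicate 3 (0.26, adjusted p = 0.0514), and with scaling by library size (0.07, adjusted p = 0.505).

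Time separated EREG from AREG. From 16 h to 36 h, EREG fell by 0.34 ± 0.10 on the log2 scale with digoxin (adjusted p = 0.00416) and by 1.03 ± 0.10 with ouabain (adjusted p = 1.39e-10). The ouabain effect on EREG was smaller at 36 h than at 16 h by -0.92 ± 0.14 (adjusted p = 3.14e-06), and the digoxin effect differed by -0.23 ± 0.14 (adjusted p = 0.205). Without the 2 libraries left out together, EREG gave 3.48 for senescence at 16 h, 1.66 for ouabain at 16 h and -1.11 for the difference of the ouabain effect.

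HBEGF, heparin-binding EGF-like growth factor, which is known to be anchored at the cell surface until shed, lies at chr5:140332843-140346631 on the minus strand of GRCh38. Proliferating libraries held 18.2, 13.6 and 14.9 CPM at 16 h and 8.43, 7.17 and 7.21 at 36 h. Senescent vehicle libraries held 58.8, 60.9 and 52.7 CPM at 16 h and 47.1, 44.5 and 47.3 at 36 h. The senescent libraries were above all proliferating libraries. HBEGF rose 3.67-fold at 16 h (log2 1.88 ± 0.15, adjusted p = 8.6e-13), 6.1-fold at 36 h (log2 2.61 ± 0.16, adjusted p = 5.95e-16) and 6.48-fold with the inhibitor (log2 2.70 ± 0.17, adjusted p = 1.05e-15).

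HBEGF rose again with either glycoside and, unlike AREG, was still high at 36 h. It was 170, 166 and 168 CPM with digoxin at 16 h and 111, 139 and 149 at 36 h. With ouabain it was 168, 116 and 155 CPM at 16 h and 119, 138 and 155 at 36 h. All of these were above every vehicle library. The log2 change was 1.55 ± 0.14 and 1.52 ± 0.14 with digoxin, and 1.34 ± 0.14 and 1.57 ± 0.14 with ouabain, at 16 h and 36 h, with adjusted p-values between 6.53e-12 and 4.25e-10. Without the 2 libraries left out together, HBEGF gave 1.78 for senescence at 16 h and 1.5 for ouabain at 16 h.

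HBEGF reached its highest levels when the caspase inhibitor was added to a glycoside. These libraries held 215, 248 and 162 CPM with digoxin and 235, 278 and 207 CPM with ouabain, while vehicle with the inhibitor held 42.9, 44.9 and 42.4 CPM. Against that vehicle the log2 change was 2.26 ± 0.14 with digoxin (adjusted p = 8.25e-16) and 2.47 ± 0.14 with ouabain (adjusted p = 1.15e-16). Against the same glycoside without inhibitor, HBEGF rose by 0.65 ± 0.14 with digoxin (adjusted p = 0.00799) and by 0.81 ± 0.14 with ouabain (adjusted p = 0.000138). The digoxin call was lost without inhibitor replicate 2 (0.50, adjusted p = 0.126) and without replicate 1 of digoxin alone (0.53, adjusted p = 0.108). In senescent vehicle cells the inhibitor changed HBEGF by -0.09 ± 0.14 (adjusted p = 0.777), and the inhibitor's added effect under ouabain, 0.90 ± 0.20, had an adjusted p of 0.0437. That call was lost with a replicate block (0.90, adjusted p = 0.0615) and without any of 10 of the 12 libraries (0.78 to 0.93, adjusted p = 0.077 to 0.205), that is all except replicate 3 of ouabain at 36 h and replicate 3 of ouabain with the inhibitor.

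TGFA, transforming growth factor alpha, at chr2:70447280-70554193 on the minus strand of GRCh38, was at the edge of detection. Its 3 libraries together held 2, 4 and 0 counts in the proliferating groups at 16 h, 36 h and 36 h with the inhibitor. They held 2, 8 and 2 counts in senescent vehicle cells, 9, 12 and 5 with digoxin and 9, 14 and 6 with ouabain. No library held more than 8 TGFA counts. It did not pass the filter on low counts and has no value in the tests described here. In a fit with no filter TGFA was called in 2 of 32 comparisons, digoxin and ouabain with the inhibitor against proliferating cells (adjusted p = 0.0348 and 0.0173), where the proliferating group held 0 counts, so no fold is given.

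NRG1, neuregulin 1, at chr8:31639386-32767959 on the plus strand of GRCh38, rose in senescence and lost that rise with a glycoside. Proliferating libraries held 31.6, 40 and 37.2 CPM at 16 h and 32.3, 30.5 and 26.5 at 36 h. Senescent vehicle libraries held 94.6, 111 and 105 CPM at 16 h, 144, 144 and 147 at 36 h, and 142, 125 and 116 with the inhibitor. All were above every proliferating library. The rise was 2.86-fold at 16 h (log2 1.52 ± 0.23, adjusted p = 9.08e-07), 4.89-fold at 36 h (log2 2.29 ± 0.23, adjusted p = 2e-10) and 4-fold with the inhibitor (log2 2.0 ± 0.23, adjusted p = 4.65e-09).

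With digoxin NRG1 was 21.5, 19.3 and 19.5 CPM at 16 h, 28.5, 35.1 and 31.4 at 36 h and 26.1, 25.7 and 24.9 with the inhibitor. With ouabain it was 19.8, 73.9 and 23.5 CPM at 16 h, 32.5, 35.2 and 39.5 at 36 h and 30.1, 23.2 and 27.2 with the inhibitor. Every one of these was below every vehicle library, including the 73.9 CPM of ouabain replicate 2 at 16 h, which stands far from its group. Digoxin lowered NRG1 5.15-fold at 16 h (log2 -2.37 ± 0.24), 4.59-fold at 36 h (log2 -2.20 ± 0.24) and 4.98-fold with the inhibitor (log2 -2.32 ± 0.24), with adjusted p-values of 1.78e-10, 4.15e-10 and 2.15e-10. The log2 change with ouabain was -1.39 ± 0.23, -2.03 ± 0.23 and -2.25 ± 0.24, with adjusted p-values of 3.17e-06, 2.22e-09 and 5e-10. Without ouabain replicate 2 the change of NRG1 at 16 h was -2.25.

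Set against proliferating cells, NRG1 with digoxin at 16 h was lower (log2 -0.85 ± 0.24, adjusted p = 0.00221). At 36 h it differed from proliferating cells by 0.09 with digoxin (95% interval -0.39 to 0.57) and by 0.26 with ouabain (-0.22 to 0.74), neither past the test. With the inhibitor the difference of NRG1 was -0.32 (-0.81 to 0.18) and -0.25 (-0.75 to 0.24). With ouabain at 16 h it was 0.12 ± 0.23 (adjusted p = 0.649), and -0.75 (adjusted p = 8.49e-07) without ouabain replicate 2. A p that misses the threshold does not show that the levels were equal. Over the 6 genes, digoxin-treated cells against proliferating cells gave 4 higher and 1 lower at 16 h, 5 higher at 36 h and 4 higher with the inhibitor, where 73.1%, 72.3% and 72.4% of all genes were called, 35.1%, 35.5% and 35.5% as higher and 38%, 36.8% and 36.8% as lower, and by library totals 22.3%, 24.4% and 25.4% as higher and 50.3%, 51.3% and 49.1% as lower. Ouabain-treated cells gave 4 higher at 16 h, 4 higher at 36 h, and 4 higher with 1 lower with the inhibitor, where 70.3%, 70.6% and 70.4% were called, 34.3%, 35% and 34.9% as higher and 36.1%, 35.6% and 35.5% as lower, and by library totals 21.4%, 25% and 24.9% as higher and 48.5%, 48.2% and 47.7% as lower.

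EGFR, the receptor gene, at chr7:55019021-55211628 on the plus strand of GRCh38, had a narrow range, with group means from 253 to 381 CPM. In all 3 proliferating groups its libraries ran from 220 to 427 CPM, both at 16 h, and in senescent vehicle cells from 288 to 401. The groups overlapped at 16 h. The log2 change in senescence was 0.15 ± 0.13 at 16 h (adjusted p = 0.342), 0.33 ± 0.13 at 36 h (adjusted p = 0.0299) and 0.13 ± 0.13 with the inhibitor (adjusted p = 0.416). Without proliferating replicate 2 at 16 h, the library with 427 CPM, EGFR was called higher at 16 h (0.45, adjusted p = 0.000238). The call at 36 h was lost without proliferating replicate 3 (0.23, adjusted p = 0.175), without senescent vehicle replicate 1 (0.33, adjusted p = 0.0567), replicate 2 (0.32, adjusted p = 0.067) or replicate 3 (0.33, adjusted p = 0.056), and with scaling by library size (0.18, adjusted p = 0.247).

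With digoxin EGFR was 346, 319 and 323 CPM at 16 h, 365, 376 and 403 at 36 h and 320, 312 and 306 with the inhibitor. With ouabain it was 345, 368 and 369 CPM at 16 h, 282, 326 and 347 at 36 h and 243, 253 and 265 with the inhibitor. The last group lay below all its vehicle libraries, at 401, 372 and 364 CPM. It was the only glycoside group in which EGFR was called against vehicle, lower by 1.49-fold (log2 -0.58 ± 0.13, adjusted p = 0.000194). The other log2 changes of EGFR were -0.07, 0.05 and -0.28 with digoxin and 0.06 and -0.21 with ouabain, with 95% intervals that all lay between -0.53 and 0.32. Against proliferating cells EGFR was higher with digoxin at 36 h (0.38 ± 0.13, adjusted p = 0.00801), a call lost without proliferating replicate 3 (0.28, adjusted p = 0.0696), and lower with ouabain and the inhibitor (-0.45 ± 0.13, adjusted p = 0.00222). Without proliferating replicate 2 at 16 h EGFR was called higher than in proliferating cells at 16 h with digoxin (0.38, adjusted p = 0.00086) and ouabain (0.51, adjusted p = 2.12e-05), where all libraries gave 0.08 and 0.21. By library size alone EGFR was called lower than vehicle at 16 h of digoxin (-0.38, adjusted p = 0.00897), with digoxin and the inhibitor (-0.52, adjusted p = 0.000534) and at 36 h of ouabain (-0.43, adjusted p = 0.00327). EGFR-AS1 is antisense within EGFR, and no source used here says whether counting used strand, so their reads cannot be told apart; the same holds for transcripts that overlap NRG1 and TGFA.

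ERRFI1, the feedback inhibitor also called MIG6, at chr1:8004404-8026308 on the minus strand of GRCh38, followed the ligands upwards. Proliferating libraries held 69.3, 63.2 and 65.3 CPM at 16 h and 45.9, 41.8 and 50.6 at 36 h. Senescent vehicle libraries held 190, 195 and 189 CPM at 16 h and 157, 155 and 153 at 36 h. The groups did not overlap. ERRFI1 rose 2.9-fold at 16 h (log2 1.54 ± 0.09), 3.35-fold at 36 h (log2 1.75 ± 0.09) and 3.33-fold with the inhibitor (log2 1.74 ± 0.09), with adjusted p-values of 2.75e-16, 7.48e-18 and 1.22e-17.

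With digoxin ERRFI1 was 347, 345 and 326 CPM at 16 h, 237, 230 and 231 at 36 h and 293, 298 and 253 with the inhibitor. With ouabain it was 386, 289 and 372 CPM at 16 h, 190, 219 and 228 at 36 h and 288, 321 and 260 with the inhibitor. Each glycoside library was above every vehicle library of its time. The log2 change of ERRFI1 was 0.83, 0.59 and 0.85 with digoxin and 0.87, 0.46 and 0.89 with ouabain, each ± 0.09, with adjusted p-values between 1.01e-10 and 3.32e-05. Without the 2 libraries left out together, ERRFI1 gave 1.5 for senescence at 16 h and 0.99 for ouabain at 16 h. The ouabain effect on ERRFI1 was smaller at 36 h than at 16 h (-0.41 ± 0.12, adjusted p = 0.00893; -0.56 without the 2 libraries left out together), and the inhibitor added 0.45 ± 0.09 to its level under ouabain (adjusted p = 0.000864).

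Counted together, digoxin against vehicle gave 4 of the 6 genes higher and 1 lower at 16 h, and 3 higher and 2 lower at 36 h with or without the inhibitor. The shares of all genes called were 59.6%, 64% and 62.4%, made up of 28.3%, 31.6% and 30.3% higher and 31.3%, 32.4% and 32.1% lower. This near balance rests on TMM, since library totals gave 15.7%, 22.9% and 23.1% higher and 43.9%, 45% and 41.9% lower. Ouabain gave 4 higher and 1 lower at 16 h, 3 higher and 2 lower at 36 h, and 3 higher and 3 lower with the inhibitor, where 53.4%, 61% and 59.5% of all genes were called, 25.1%, 30.2% and 28.9% as higher and 28.4%, 30.8% and 30.6% as lower, and by library totals 14.9%, 23.3% and 22.3% as higher and 41.6%, 40.5% and 39.5% as lower. The median log2 change of the 6 genes was 1.14, 0.32 and 0.26 with digoxin and 1.1, 0.12 and -0.14 with ouabain, while that of all genes was within 0.02 of 0. The digoxin and ouabain comparisons share their vehicle libraries.

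**Figure D3:**
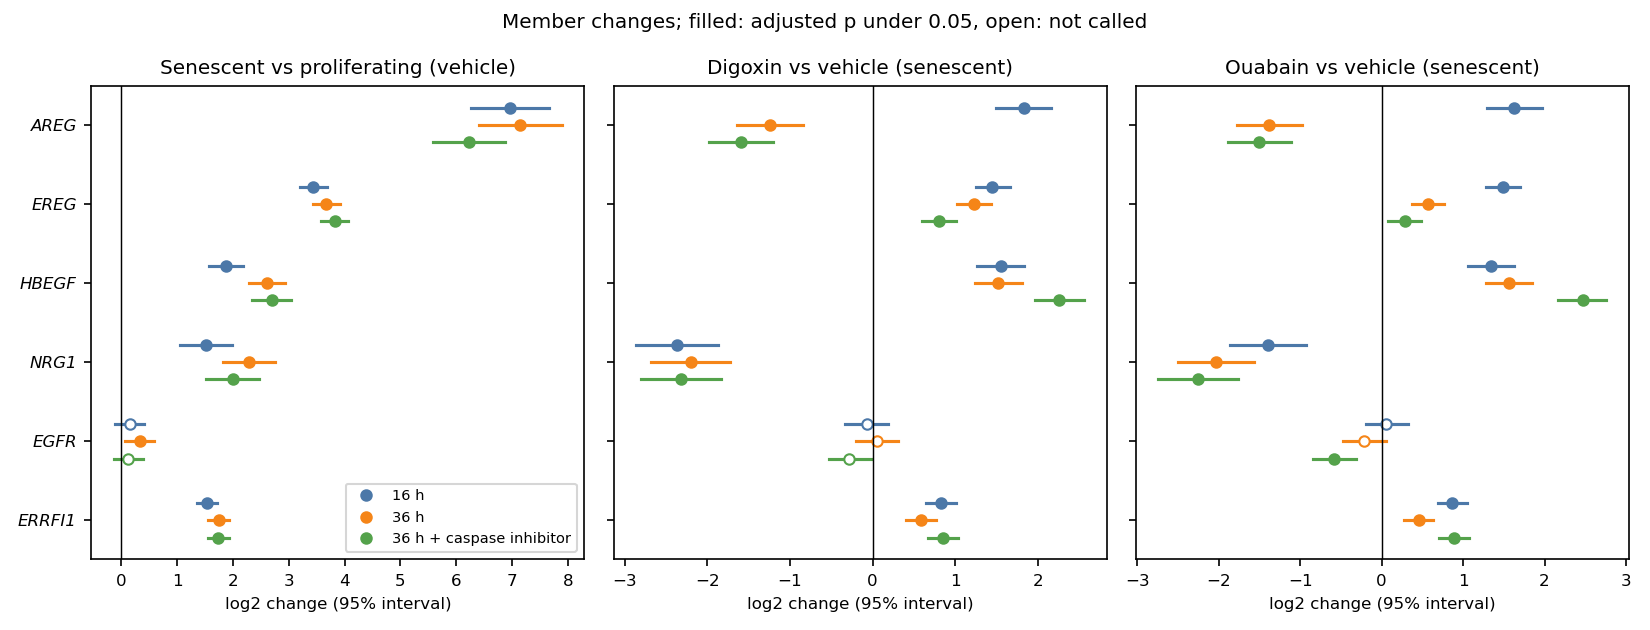
Log2 change with its 95% interval for the 6 tested genes in senescence, with digoxin and with ouabain, coloured by time and inhibitor, filled where the adjusted p was under 0.05. AREG changes side between 16 h (1.83 with digoxin) and 36 h (-1.24), NRG1 is below 0 in all 6 glycoside comparisons, and EREG, HBEGF and ERRFI1 are above 0 in all 6.

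Per length of exon, the mix of ligand RNAs shifted with treatment. At 36 h, senescent vehicle libraries held 22.6 to 25 CPM per kilobase of EREG, 14.8 to 15.7 of HBEGF, 12.8 to 13 of NRG1 and 7.77 to 8.85 of AREG, and these ranges did not overlap. At 16 h of digoxin the order was EREG with 67.6 to 72.3 CPM per kilobase, HBEGF with 54.9 to 56.3, AREG with 37.5 to 41 and NRG1 with 1.7 to 1.89. At 36 h of ouabain HBEGF held 39.5 to 51.5 CPM per kilobase, above EREG with 31.6 to 37.9, while AREG with 3.14 to 3.31 and NRG1 with 2.87 to 3.49 overlapped. With ouabain and the inhibitor HBEGF held 68.6 to 92.2 CPM per kilobase and EREG 34.3 to 38.8. These levels use the union of annotated exons, so unused exons of NRG1, whose union is 11.33 kb, lower its value per length. AREG is counted here without the unnamed row. At 16 h of digoxin that row held 1077, 1007 and 1152 counts, beside 1048, 1039 and 1187 for AREG. If that row is a copy of AREG, AREG is understated here and its place among the ligands may change.

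**Figure D4:**
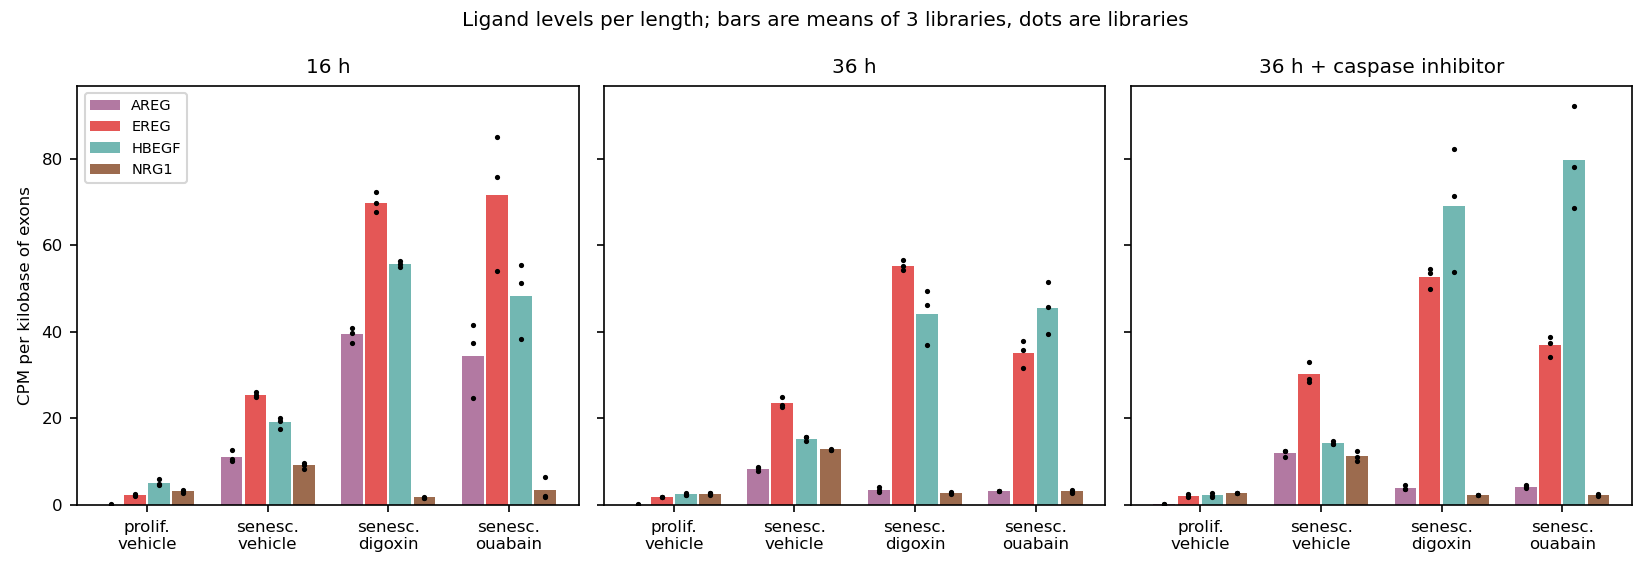
Level of 4 ligand RNAs in CPM per kilobase of exons, by treatment in 3 panels of time and inhibitor, with bars at means of 3 libraries and dots for libraries. EREG leads in senescent vehicle groups, and by mean HBEGF leads at 36 h of ouabain and in both glycoside groups with the inhibitor. AREG is drawn without the unnamed row that may be its copy.

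Over time without a glycoside the genes moved less. In proliferating cells 2 of the 6 fell from 16 h to 36 h (8.14% of all genes called), HBEGF by 1.04 ± 0.17 on the log2 scale (adjusted p = 5.26e-05) and ERRFI1 by 0.52 ± 0.09 (adjusted p = 0.000206), a call lost when those groups were fitted alone (-0.50, adjusted p = 0.115). In senescent vehicle cells 0 were called by edgeR (1.54% of all genes called), while 4, namely AREG, HBEGF, NRG1 and ERRFI1, were at an unadjusted p under 0.05 and DESeq2 called 1, ERRFI1. With digoxin 4 fell and 1 rose (57.6% called), NRG1 rising by 0.66 ± 0.25 (adjusted p = 0.0226) and HBEGF falling by 0.33 ± 0.14 (adjusted p = 0.0342). Those calls were fragile. NRG1 lost its call without digoxin replicate 2 at 16 h (0.63, adjusted p = 0.0599), replicate 3 at 16 h (0.64, adjusted p = 0.0579) or replicate 2 at 36 h (0.58, adjusted p = 0.0793), and HBEGF lost its call without any of the 16 h digoxin libraries or replicate 1 at 36 h (-0.34 to -0.22, adjusted p = 0.0583 to 0.217). ERRFI1 fell by 0.55 ± 0.09 with digoxin (adjusted p = 2.25e-06). With ouabain 3 fell (50% called), AREG and EREG as given above and ERRFI1 by 0.72 ± 0.09 (adjusted p = 1.98e-08).

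The inhibitor alone, at 36 h, called 0 of the 6 genes in proliferating cells with edgeR, with DESeq2 and at an unadjusted p under 0.05 (3.59% of all genes called). In senescent vehicle cells it called 1 (7.41% called), EREG, higher by 0.36 ± 0.10 (adjusted p = 0.0245). EREG lost that call without inhibitor replicate 1 (0.29, adjusted p = 0.162) and without vehicle replicate 2 (0.34, adjusted p = 0.092) or replicate 3 (0.33, adjusted p = 0.11). Under digoxin it called 1, HBEGF (0.877% called), and under ouabain 2, HBEGF and ERRFI1 (8.89% called).

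Ouabain carries the sugar rhamnose where digoxin has a chain of digitoxose sugars, and its steroid bears more hydroxyl groups. Without stated doses, a difference of compound and one of dose cannot be told apart. Over 3 arms and 6 genes, 18 pairs were compared. At 16 h only NRG1 passed the test (4.94% of all genes called, 3.95% higher with ouabain and 0.984% lower), at 0.97 ± 0.24 on the log2 scale (95% interval 0.48 to 1.46, adjusted p = 0.0145), with overlapping libraries. Without ouabain replicate 2 the NRG1 difference was 0.09 (adjusted p = 0.896), and the call was also lost without digoxin replicate 1 (1.02, adjusted p = 0.0528), replicate 2 (0.94, adjusted p = 0.0591) or replicate 3 (0.95, adjusted p = 0.0627). At 36 h only EREG passed (5.36% called, 1.52% higher and 3.85% lower), 1.58-fold lower with ouabain (log2 -0.66 ± 0.10, 95% interval -0.86 to -0.46, adjusted p = 0.000131). With the inhibitor again only EREG passed (1.45% called, 0.439% higher and 1.01% lower), 1.43-fold lower with ouabain (log2 -0.52 ± 0.10, 95% interval -0.72 to -0.31, adjusted p = 0.00296). The direction of all called genes turned with scaling at 36 h, where library totals gave 3.77% higher and 1.57% lower, and with the inhibitor they gave 0.578% and 0.722%, while EREG stayed lower in both.

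The other differences between ouabain and digoxin did not pass, which does not show that the compounds act alike. For AREG the 95% interval was -0.51 to 0.12 at 16 h, -0.59 to 0.30 at 36 h and -0.35 to 0.53 with the inhibitor. For HBEGF it was -0.47 to 0.07, -0.23 to 0.32 and -0.07 to 0.48. For ERRFI1 it was -0.14 to 0.22, -0.31 to 0.04 and -0.14 to 0.22. The EGFR difference was -0.26 (-0.52 to 0, adjusted p = 0.248) at 36 h and -0.30 (-0.56 to -0.04, adjusted p = 0.28) with the inhibitor, and the libraries did not overlap in either arm. NRG1 at 36 h had an interval of -0.32 to 0.66, and of -0.44 to 0.57 with the inhibitor.

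Other genes of the pathway were read from lists of ligands, receptors, sheddases, adaptors and negative regulators. Of 6 further ligands only EGF was tested, and it was 1.38 ± 0.23 lower on the log2 scale in senescence at 36 h (adjusted p = 4.06e-06) and 1.03 ± 0.26 lower with digoxin at 16 h (adjusted p = 0.001). BTC, EPGN, NRG2, NRG3 and NRG4 had 12 to 170 counts in all. ERBB2, the partner receptor without a ligand of its own, fell by 1.05 ± 0.08 and 1.20 ± 0.08 in senescence at 16 h and 36 h (adjusted p = 1.77e-13 and 3.75e-15), and by 0.55 ± 0.08 and 1.39 ± 0.09 with digoxin (adjusted p = 7.07e-07 and 1.59e-15). ERBB3, which binds NRG1, stayed under 1 CPM in every library, and ERBB4 was not tested, with 147 counts in all.

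Of the 10 genes of ligand shedding, 3 rose and 4 fell in senescence at 16 h, and 6 rose and 1 fell at 16 h of either glycoside, so that 7 of 10 were called in each, beside 51.6%, 59.6% and 53.4% of all genes. The median log2 change of this list was -0.08 in senescence and 0.40 and 0.32 with digoxin and ouabain, where that of all genes was 0.01 to 0.02. At 36 h, 4 rose and 4 fell in senescence, 4 rose and 3 fell with digoxin, and 4 rose and 4 fell with ouabain. The shares of all genes called there were 52.5%, 64% and 61%. ADAM17, the sheddase known to release AREG, EREG, HBEGF and TGFA, rose by 1.79 ± 0.10 with digoxin and by 1.70 ± 0.10 with ouabain at 16 h (adjusted p = 1.99e-17 and 1.16e-16). Its libraries held 40 to 42.1 CPM with vehicle and 139 to 144 CPM with digoxin. ADAM19, known from mouse work to cut neuregulin, rose by 2.16 ± 0.13 in senescence at 16 h (adjusted p = 1.4e-16) and fell at 36 h by 1.63 ± 0.12 with digoxin and 1.56 ± 0.12 with ouabain (adjusted p = 6.86e-14 and 2.55e-13). ADAM19 libraries held 641 to 658 CPM with vehicle at 36 h, 185 to 230 with digoxin and 183 to 247 with ouabain. TIMP3, an inhibitor of ADAM17, fell by 1.13 ± 0.10 in senescence at 16 h (adjusted p = 3.75e-12) and rose by 0.68 ± 0.10 with ouabain at 16 h and by 1.49 ± 0.10 at 36 h with the inhibitor (adjusted p = 2.82e-07 and 3.27e-15). RHBDF2, a rhomboid partner of ADAM17, fell by 0.86 ± 0.20 with digoxin at 16 h and by 1.70 ± 0.20 at 36 h (adjusted p = 0.000278 and 4.04e-09).

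Of 11 negative regulators of the receptor, 4 rose and 4 fell in senescence at 16 h, 4 rose and 6 fell with digoxin and 5 rose and 6 fell with ouabain, beside the same 51.6%, 59.6% and 53.4% of all genes. Their median log2 change was 0.02, -0.56 and -0.35. At 36 h, 6 rose and 2 fell in senescence, 5 rose and 2 fell with digoxin, and 5 rose and 4 fell with ouabain. The shares of all genes called there were 52.5%, 64% and 61%. The median of the list was then 0.36, 0.18 and 0.07, and with the inhibitor it was 0.2, -0.12 and -0.09. LRIG3, of a family of membrane proteins that act on ERBB receptors, fell by 1.54 ± 0.13 in senescence at 16 h (adjusted p = 6.46e-12), by 2.35 ± 0.19 with digoxin at 16 h and by 1.72 ± 0.18 with ouabain at 16 h (adjusted p = 1.29e-12 and 3.94e-10). CBL, the ubiquitin ligase of the active receptor, rose by 1.35 ± 0.16 with either glycoside at 16 h (adjusted p = 5.36e-09 and 9.03e-09). SOCS4, which is known to act on EGFR turnover, rose at 36 h by 1.55 ± 0.09 with digoxin and 1.11 ± 0.09 with ouabain (adjusted p = 1.38e-16 and 1.2e-12). Of 7 adaptors, 3 rose and 3 fell with digoxin at 16 h, beside 59.6% of all genes, where SOS2 and SOS1, exchange factors for RAS, fell by 1.14 ± 0.11 and 0.79 ± 0.13 (adjusted p = 7.37e-11 and 2.13e-06). With ouabain at 16 h, 3 adaptors rose and 2 fell, beside 53.4%. At 36 h, 4 rose and 1 fell with either glycoside, beside 64% with digoxin and 61% with ouabain. Their median log2 change with digoxin and ouabain was -0.14 and -0.11 at 16 h, and 0.31 and 0.38 at 36 h. SHC1 rose by 0.69 ± 0.07 and GAB1 fell by 0.84 ± 0.13 in senescence at 16 h (adjusted p = 6.01e-11 and 1.43e-06).

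**Figure D5:**
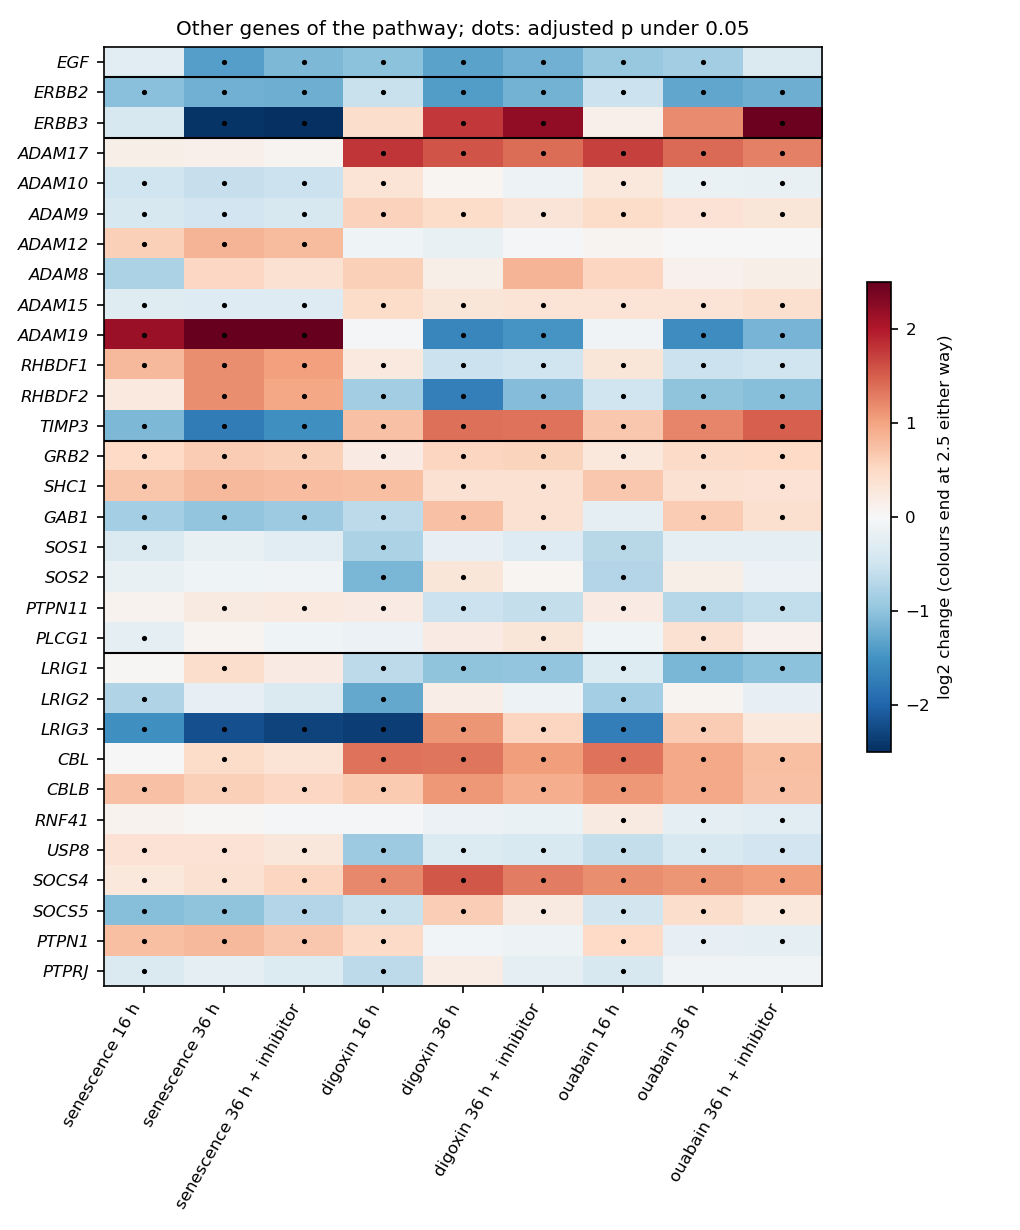
Log2 change of other tested genes of the pathway (rows, grouped as ligand, receptors, shedding, adaptors and negative regulators) in senescence, with digoxin and with ouabain (columns), with dots where the adjusted p was under 0.05. ADAM17 and CBL are higher in all 6 glycoside comparisons, ERBB2 is lower in all 9, and ERBB3 has strong colours at levels under 1 CPM.

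Across the 36 libraries the log2 levels of EREG, HBEGF and ERRFI1 ran close together, with Pearson correlations of 0.98 for EREG and ERRFI1, 0.97 for HBEGF and ERRFI1 and 0.94 for EREG and HBEGF. AREG correlated with EREG at 0.91 and with HBEGF at 0.77, and NRG1 with the other genes at -0.19 to 0.42. The libraries share groups and scaling, so these are descriptions. The 3 genes most like AREG were CASP4 (0.977), VMP1 (0.976) and PROCR (0.976), and those most like EREG were NAB1 (0.99), IL1RAPL1 (0.989) and ZNF438 (0.988). HBEGF ran closest to SLC31A1 (0.985), LDHA (0.983) and C3orf52 (0.982), and ERRFI1 to USP12 (0.986), CARS2 (0.985) and IL1RAPL1 (0.983). NRG1 ran closest to FLRT3 (0.961), EFTUD2 (0.947) and CHMP7 (0.941), while the best for EGFR, GPATCH2L, reached 0.784 over the same 36 libraries.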

How the data were processed

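RNA of 36 libraries was measured with an Illumina stranded mRNA kit, per the labels. The authors deposited unnormalised counts for each gene. The tools are TopHat2 2.0.11 for alignment, on hg19, and featureCounts for counting, per the submitters' processing notes, which state neither its version and strand setting nor an annotation release. Identifiers were matched to symbols (51058 from a names table, 309 from GENCODE). Genes passing filterByExpr (18696) were scaled by TMM and fitted with edgeR 4.0.16 (limma 3.58.1, R 4.3.3) in 1 quasi-likelihood model of 12 group means. It gave 26 pairwise comparisons and 6 interactions, two-sided, with Benjamini-Hochberg adjustment over all tested genes. The code was run on simulated counts in which few genes changed, which does not test the scaling where many genes change, as here. CPM are counts per 1000000 of the TMM-scaled library size, and correlations used log2 CPM with a prior count of 2. Positions and exon lengths come from GENCODE on GRCh38, promoters from RefSeq. Genes named are the 7 members, up to 2 called genes per pathway list and comparison with at least 1 CPM, largest change first, and the 3 genes most like each member. For EGFR only the best match is printed. Members and lists were chosen with earlier results of these data known. Counting intervals and floors cover counting error only. Alternatives were DESeq2 1.42.0, RLE factors, library-size scaling, no filter, the compared groups alone, a replicate block and leaving out each library. Fits without the 2 deviating libraries and with the AREG row summed were chosen after seeing the data. 1 marker of the leukocyte list is not reported here. Figures used matplotlib 3.10.9.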

Additional observations from a re-analysis of the deposited data

Results flagged for a closer look

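The effect of a glycoside on a gene differed between the times or inhibitor arms in 5 cases, by an interaction term of the edgeR model. AREG rose with digoxin at 16 h and fell at 36 h, a difference of -3.07 on the log2 scale (adjusted p = 8.43e-12), in a comparison that called 42.7% of all genes. With ouabain the AREG difference was -3.02 (adjusted p = 2.43e-11), where 35.1% of all genes were called. The ouabain effect was also smaller at 36 h for EREG, by -0.92 (adjusted p = 3.14e-06), and for ERRFI1, by -0.41 (adjusted p = 0.00893). HBEGF rose more with ouabain when the inhibitor was present, by 0.90 (adjusted p = 0.0437), where 0.15% of all genes were called. The HBEGF call was lost with the replicate block (0.90, adjusted p = 0.0615) and without 10 of the 12 libraries taken singly, that is all but replicate 3 of ouabain at 36 h and replicate 3 of ouabain with the inhibitor (0.78 to 0.93, adjusted p = 0.077 to 0.205). The cause of these differences was not tested.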

How the results depend on the processing

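All calls of senescence against proliferation and of glycoside against vehicle kept direction under every alternative, and AREG, HBEGF, NRG1, ERRFI1 and, except with ouabain and the inhibitor, EREG kept their calls there. Of 192 values per setting, RLE factors kept 191 calls, DESeq2 187, scaling by library size 181, no filter 179 and the compared groups alone 160. The number of members called moved by over 1.5 times, or from or to 0, as follows. With the compared groups alone it was 1 for 36 h against 16 h in proliferating cells (2 in the report) and 4 in senescent vehicle cells (0), 3, 3 and 4 for the inhibitor in vehicle, digoxin and ouabain cells (1, 1 and 2), 3 for the digoxin time interaction (1), 4 and 3 for the digoxin and ouabain inhibitor interactions (0 and 1), 2 for the senescence time interaction (0), and 0, 2 and 2 for ouabain against digoxin at 16 h, 36 h and with the inhibitor (1 each). DESeq2 gave 1 for senescent vehicle time, 2 for the inhibitor in vehicle cells, and 1 each for the digoxin inhibitor and senescence time interactions. No filter gave 1, 2, 1 and 2 for these, and 4 and 2 for the inhibitor under ouabain and its interaction. Library size gave 1 for senescent vehicle time. Smaller moves under library size were from 5 to 6 for digoxin at 16 h and with the inhibitor and for ouabain at 36 h, from 6 to 5 for senescence at 36 h and for ouabain with the inhibitor, and, against proliferating cells, from 5 to 6, 5 to 4 and 4 to 6 for digoxin at 16 h, 36 h and with the inhibitor and from 5 to 6 for ouabain with the inhibitor. The call lost under RLE and under DESeq2 was HBEGF from 16 h to 36 h of digoxin (-0.30, adjusted p = 0.0583 and 0.0708). Without the 2 deviating libraries the senescence time interaction gave 2 and ouabain against digoxin at 16 h 0. Leaving out 1 library gave 3 to 5 for digoxin time (5 in the report) and 0 to 1 for the inhibitor in digoxin and vehicle cells, both drug inhibitor interactions, the senescence time interaction and ouabain against digoxin at 16 h.

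Some directions turned. By library size EGFR was -0.34 (adjusted p = 0.0161) at 16 h and -0.08 at 36 h for digoxin-treated against proliferating cells, where TMM gave 0.08 and 0.38, the last lost without proliferating replicate 3 (0.28). NRG1 from 16 h to 36 h of ouabain was -0.15, and 0.70 without ouabain replicate 2 or without both deviating libraries (-0.46 to 0.70 when leaving out 1 library). NRG1 with ouabain against proliferating cells at 16 h was 0.12, and -0.75 or -0.66 in those fits (-0.75 to 0.44 when leaving out 1 library). The causes were not tested.

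Over all genes, counts moved by over 1.5 times where few genes were called. With the compared groups alone, calls went from 1522 to 84 for proliferating time, 287 to 1086 for senescent vehicle time, 1385 to 5490, 164 to 417 and 1662 to 2688 for the inhibitor in vehicle, digoxin and ouabain cells, 923 to 3, 1003 to 2080 and 271 to 811 for ouabain against digoxin, and 399 to 181, 2 to 28, 46 to 755 and 28 to 625 for the senescence time, senescence inhibitor, digoxin inhibitor and ouabain inhibitor interactions. DESeq2 gave 1391 (671) for the inhibitor in proliferating cells, 301 in digoxin cells, 495 for ouabain against digoxin with it, and 21, 129 and 63 for the 3 inhibitor interactions. No filter gave 415 and 668 for the inhibitor in proliferating and senescent vehicle cells and 20, 22 and 86 for those interactions. Library size gave 1 and 12, and RLE 1 and 11, for the first 2 of them. Without the 2 deviating libraries, proliferating time gave 2800, the senescence time interaction 786 and ouabain against digoxin at 16 h 287. Leaving out 1 library gave 1014 to 2651 for proliferating time, 130 to 148 for senescent vehicle time, 126 to 708, 547 to 895, 95 to 117 and 776 to 1251 for the inhibitor in proliferating, vehicle, digoxin and ouabain cells, 136 to 1700, 394 to 666 and 91 to 314 for ouabain against digoxin, 271 to 1142 for the senescence time interaction, and 0 to 2, 4 to 30 and 8 to 20 for the 3 inhibitor interactions.

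The values showed no general pairing of libraries by replicate number. Of 78 same-number pairs, 6 correlated over 0.1 in their deviations (range -0.21 to 0.26), and 11 of 36 libraries correlated best with their own number. Such correlations cannot tell how the cultures were set up. A replicate block changed 1 of 192 calls, HBEGF in the ouabain inhibitor interaction (0.90, adjusted p = 0.0615, so 0 members called, and 17 of all genes in place of 28). TGFA is limited by depth. In a fit with no filter it passed the test only for digoxin and ouabain with the inhibitor against proliferating cells (adjusted p = 0.0348 and 0.0173), where the proliferating group held 0 counts.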
